A study of Rattus norvegicus with 14 samples.

Results

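Scgb1b24, Fabp12 and Lypd4 are 3 genes of separate families that were selected on their signal in OOX against sham males in the choroid plexus (CP), and their signal in each pool is described here. Their probes were found through the accessions of the array, and they are 3 of the 15154 genes named on the array. Each has 1 probe with 1 spot on each array. The male comparison chose them, so their male values are a description without a test, and the female comparison was tested.

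CP of the lateral ventricles of Wistar rats was collected 2 weeks after surgery, which was done at an age of about 2 months. Ovariectomized (OVX) females, sham-operated females, orchidectomized (OOX) males and sham-operated males were compared, with 3 pools of OVX females, 3 of sham females, 4 of OOX males and 4 of sham males. Each of the 14 pools held RNA of 3 animals and was hybridized to 1 single-colour array. The methods name fewer pools per male group than the labels, and fewer animals per group than separate pools would need. The sources do not say if pools shared animals, so that they may not be independent, and p-values measure only the spread between these pools. In such tissue RNA fewer cells of a type and less RNA per cell cannot be told apart. All groups had undergone surgery.

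Values are log2 of the background-subtracted signal minus the median of the array, so that 0 is the signal of the median probe. The scanner software marks whether a spot is well above background, and a value without this mark is only a bound. The lowest signal of an array was between -7.14 and -7.02 in OVX females, -6.63 and -6.13 in sham females, -7.06 and -6.44 in OOX males, and -7.05 and -6.23 in sham males. The lowest signal with the mark was between -4.80 and -4.63 in OVX females, -4.28 and -3.75 in sham females, -4.72 and -4.10 in OOX males, and -4.72 and -3.90 in sham males. Dim signal therefore reached lower values on OVX than on sham female arrays. All 12 markers of CP epithelium, among them Ttr, the thyroid hormone carrier that this epithelium secretes, were well above background on all arrays.

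Scgb1b24 encodes a secretoglobin, a small secreted protein, of the subfamily known in the mouse as the alpha subunits of androgen-binding protein, which salivary and lacrimal glands release. Fabp12 encodes a fatty acid-binding protein, a family of intracellular carriers of lipids; in the rat it is known from retina and testis. Lypd4 encodes a protein with a Ly6/uPAR domain, a fold of surface proteins that are often held in the membrane by a lipid anchor; in the mouse it is known from sperm and male fertility. The CP epithelium itself secretes cerebrospinal fluid and forms the barrier between blood and that fluid.

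The promoters of Scgb1b24 and Lypd4 are shown to place both genes, and that of Scgb1b30 because it lies beside Scgb1b24 and is nearly its copy. The sequences are from RefSeq (assembly GRCr8) and are 300 bases long, most of them before the start of the transcript. Scgb1b24 lies at chr1:95649820-95650119 on the minus strand, Scgb1b30 at chr1:95854445-95854744 on the plus strand, and Lypd4 at chr1:89593841-89594140 on the minus strand. Fabp12, on chromosome 2, is named only. Capitals mark TATAAA and TGACCT in the first 2 sequences, and CCAAT and TGTTCT in the third. TGACCT is AGGTCA, the half-site of estrogen receptors, read on the other strand. TGTTCT is AGAACA read on the other strand, a half-site that the glucocorticoid receptor shares with the androgen receptor.
Scgb1b24: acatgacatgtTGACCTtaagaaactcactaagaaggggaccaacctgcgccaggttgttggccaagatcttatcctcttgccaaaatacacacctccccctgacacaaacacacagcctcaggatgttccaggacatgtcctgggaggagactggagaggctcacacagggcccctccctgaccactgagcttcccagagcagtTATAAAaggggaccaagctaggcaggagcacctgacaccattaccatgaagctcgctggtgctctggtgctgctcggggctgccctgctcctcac
Scgb1b30: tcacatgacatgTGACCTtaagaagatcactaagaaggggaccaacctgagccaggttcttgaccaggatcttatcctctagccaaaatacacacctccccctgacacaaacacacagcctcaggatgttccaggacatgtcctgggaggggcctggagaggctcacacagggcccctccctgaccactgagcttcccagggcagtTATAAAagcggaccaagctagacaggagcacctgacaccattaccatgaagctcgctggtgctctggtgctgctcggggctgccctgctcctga
Lypd4: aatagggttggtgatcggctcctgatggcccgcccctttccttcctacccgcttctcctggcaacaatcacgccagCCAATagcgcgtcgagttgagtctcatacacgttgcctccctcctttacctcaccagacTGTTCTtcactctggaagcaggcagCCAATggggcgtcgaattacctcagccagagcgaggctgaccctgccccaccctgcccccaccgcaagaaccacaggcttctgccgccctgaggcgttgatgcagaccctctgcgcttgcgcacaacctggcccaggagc

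The promoters of Scgb1b24 and Scgb1b30 were identical at 285 of 298 aligned bases (95.6%). TATAAA began at -45 in Scgb1b24 and at -44 in Scgb1b30, counted from the start of the transcript. AGGTCA, on the reverse strand, lay at -239 in Scgb1b24 and at -238 in Scgb1b30. In Lypd4, CCAAT began at -174 and at -90, and AGAACA, on the reverse strand, at -115. On either strand of 33469 rat promoters of the same length TATAAA was found in 14.2%, CCAAT in 37.5%, AGGTCA in 16.2% and AGAACA in 20.7%. A pair of either half-site facing each other across 3 free bases, the full site of these receptors, is held by 0.0149% of promoters for AGAACA and 0.00896% for AGGTCA. These pairs and TGACGTCA, the cyclic AMP response element, held by 1.83%, had no match in the 3 windows. Motifs that overlap were counted separately, and a match describes letters, not binding.

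Scgb1b24 had the widest range of the 3 genes. It was at 0.55, -1.44 and 2.86 in OVX females (replicates 1 to 3), against -6.15, -4.32 and 0.22 in sham females. All 3 OVX pools were well above background, whereas among sham females only replicate 3 was, at a level between those of OVX replicates 1 and 2. The processed signal was 285, 62.9 and 2096 units in OVX females, against 2.47, 8.98 and 240.1 units in sham females. The mean was 0.66 ± 2.15 in OVX and -3.42 ± 3.28 in sham females (SD, n = 3 each). The difference of 4.07 (SE 1.80) did not pass the test across all genes (limma, Benjamini-Hochberg adjusted p = 0.252), and the groups overlapped. Without sham female replicate 3 it was 5.89 (limma, adjusted p = 0.125). The only slide with both groups held OVX replicate 1 and sham female replicate 3, and within it the difference was 0.33.

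In males Scgb1b24 was at -2.49, -2.64, -1.40 and -3.41 in OOX pools, against -7.01, -6.60, -7.03 and -6.21 in sham pools. All 4 OOX pools were well above background, and the 4 sham pools lay only 0.02 to 0.03 above the lowest signal of their arrays. The processed signal was 22.5 to 98.9 units in OOX males and 1.51 to 2.38 units in sham males. The mean was -2.48 ± 0.83 in OOX and -6.71 ± 0.39 in sham males (SD, n = 4 each), a difference of 4.23 (SE 0.40) without overlap. In this comparison, which chose the 3 genes, 0.0858% of all genes were called higher, 0% lower, and 2.44% had every OOX pool above every sham pool. Set against the lowest signal well above background on the sham arrays, used as the bound of a dim group throughout, Scgb1b24 was at least 3.77-fold higher in OOX males. Within the slide that held OOX replicate 4 and sham male replicates 1 and 2 the difference was 3.39. The order of the 4 group means was OVX females, OOX males, sham females and sham males. The means of OOX males and sham females, neighbours in this order, lay within the spread of the sham females. OVX and OOX pools overlapped only at their ends (-1.44 in OVX replicate 2 and -1.40 in OOX replicate 3). Sham female replicate 1 and the sham males were all at the lowest signal of their arrays and have no order.

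**Figure D1:**
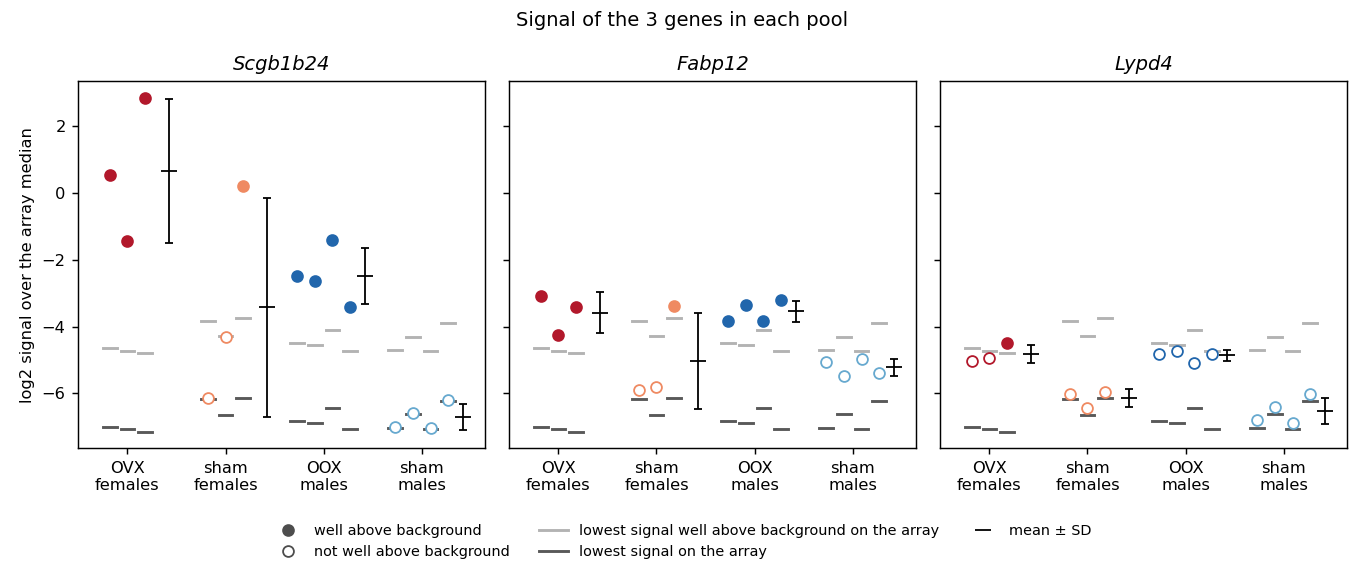
Signal of Scgb1b24, Fabp12 and Lypd4 (log2 over the array median, y axis) in each pool of the 4 groups (x axis), with filled points well above background, open points not, grey marks for the lowest signal of each array and the lowest signal well above background on it, and mean ± SD. All OVX and OOX pools are filled for Scgb1b24 and Fabp12, sham female replicate 3 is the only filled sham point (0.22 for Scgb1b24, -3.38 for Fabp12), and Lypd4 is filled only in OVX replicate 3 (-4.50).

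Fabp12 varied less and had the same sham pool as an exception. It was at -3.07, -4.26 and -3.41 in OVX females, against -5.91, -5.80 and -3.38 in sham females. The 3 OVX pools and sham female replicate 3 were well above background, and the other two sham pools were not. The mean was -3.58 ± 0.61 in OVX and -5.03 ± 1.43 in sham females (SD, n = 3 each). The difference of 1.45 (SE 0.72) did not pass (limma, adjusted p = 0.303), and sham female replicate 3 lay inside the range of the OVX pools. Without that pool the difference was 2.28 (limma, adjusted p = 0.0960), and within the shared slide it was 0.31.

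In males Fabp12 was at -3.82, -3.35, -3.82 and -3.19 in OOX pools, against -5.07, -5.47, -4.96 and -5.38 in sham pools. All OOX pools and none of the sham pools were well above background, and the groups did not overlap. The processed signal was 14.6 to 26.3 units in OOX males and 4.22 to 6.70 units in sham males. The mean was -3.54 ± 0.32 in OOX and -5.22 ± 0.25 in sham males (SD, n = 4 each), a difference of 1.68 (SE 0.20). As a bound, Fabp12 was at least 1.81-fold higher in OOX males. Within the slide with both male groups the difference was 2.08. OOX males and OVX females led the order of means and lay within each other's spread, as did sham females and sham males below them.

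Lypd4 was not well above background on 13 of the 14 arrays, so its level is a bound almost throughout. It was at -5.02, -4.93 and -4.50 in OVX females, against -6.03, -6.44 and -5.95 in sham females. Only OVX replicate 3 was well above background. The 3 OVX pools were 2.00, 2.15 and 2.64 above the lowest signal of their arrays, against 0.13, 0.19 and 0.19 in the 3 sham pools. Sham female replicate 3, which was high for both other genes, was as low for Lypd4 as its group. The mean was -4.82 ± 0.28 in OVX and -6.14 ± 0.26 in sham females (SD, n = 3 each), and the difference of 1.32 (SE 0.20) passed the test (limma, adjusted p = 0.0401) with no overlap. With values below the detection mark raised to the lowest signal well above background on their array, the difference turned to -0.67 (limma, adjusted p = 0.0295). Only OVX replicate 3 kept its own value there, so that this mostly compares the detection levels of the arrays. With normexp background correction the difference was 0.088 (limma, adjusted p = 0.935). The offset of 50 added there lies far above the processed signal of Lypd4, 5.61 to 12.7 units in OVX and 2.07 to 3.35 units in sham females. It shrinks differences between such signals, so that this value cannot decide if the groups differed. Of all genes tested in females 1.83% were called higher, 4.42% lower and 6.25% in either direction, and 11.5% had every OVX pool above every sham pool, so that 1 called gene of 3 stands beside a background of calls in both directions. The call was lost without any 1 pool other than sham female replicate 2 (adjusted p of 0.0790 to 0.121 in those 5 limma fits, and 0.0333 without sham female replicate 2). In those 5 fits the calls over all genes also fell, from 947 to between 2 and 16, and the Lypd4 difference was 1.17 to 1.42. Within the shared slide the difference was 0.93. OVX replicates 2 and 3 were scanned on another day than the remaining female arrays, and with this as a block the difference was 1.12 (limma, adjusted p = 0.278). No fold can be given, since the OVX mean did not exceed the lowest signal well above background on the sham arrays.

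In males Lypd4 was at -4.83, -4.73, -5.09 and -4.81 in OOX pools, against -6.79, -6.40, -6.90 and -6.03 in sham pools. No male pool was well above background. The OOX pools were 1.34 to 2.26 above the lowest signal of their arrays and the sham pools 0.16 to 0.24. The mean was -4.86 ± 0.16 in OOX and -6.53 ± 0.40 in sham males (SD, n = 4 each), a difference of 1.67 (SE 0.21) without overlap, and within the shared slide the difference was 1.79. With values raised to the lowest signal well above background it was -0.066. Every male value was replaced there, so that this only compares the detection levels of the arrays and says nothing on direction. With normexp, which adds an offset of 50 to each signal, the difference was -0.044 (SE 0.075). The processed signal of Lypd4 was only 7.27 to 9.86 units in OOX and 1.75 to 2.69 units in sham males. An offset of that size shrinks differences between such dim signals, so that this value cannot decide the direction. OVX females and OOX males were within each other's spread, and sham females and sham males overlapped. Nearly all Lypd4 values are bounds, so that overlap or its absence concerns the recorded signals and orders no levels.

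The 3 genes varied together over the 14 pools, with Pearson's r of 0.79 between Scgb1b24 and Fabp12, 0.76 between Scgb1b24 and Lypd4 and 0.78 between Fabp12 and Lypd4. These values describe 14 pools that share the scaling and the level of dim signal of their arrays, and the choice of the genes for high OOX and low sham levels fixes part of them.

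**Figure D2:**
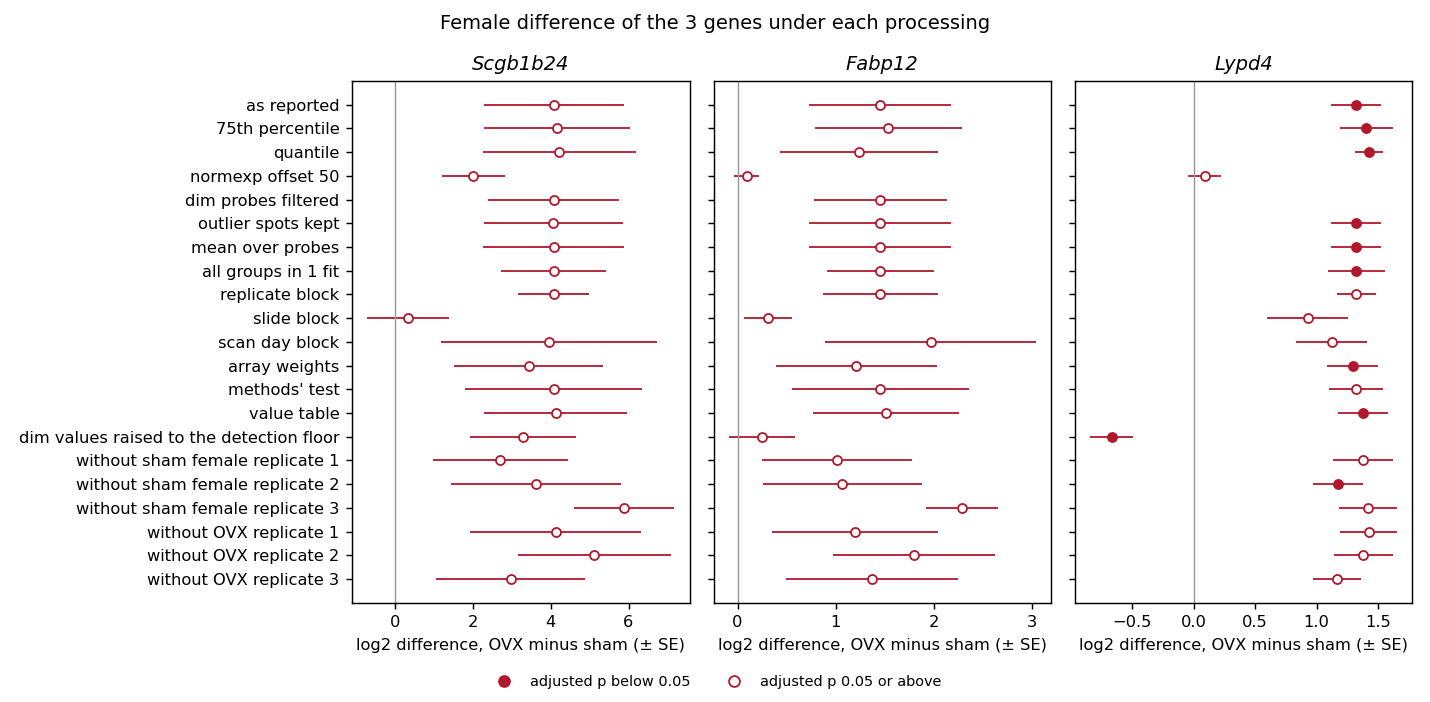
Difference between OVX and sham females (log2, x axis, ± SE) for each of the 3 genes under each way of processing (y axis), filled where the limma or methods' test gave an adjusted p below 0.05. Scgb1b24 (4.07 as reported) and Fabp12 (1.45) are open in every row, Lypd4 (1.32) is filled in some, and the block on slide takes the differences to 0.33, 0.31 and 0.93.

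Of the 8 other secretoglobins measured, 0 were called higher and 1 lower in OVX females and 0 in either direction in OOX males, with a median difference of -0.47 in females (all genes -0.07) and -0.06 in males (all genes 0.02). The gene called lower, Scgb1d4, was not well above background on any array; it was at -6.86 in OVX and -6.02 in sham females, near the lowest signal of each group's arrays. Scgb1d2 and Scgb3a2 were not well above background on any array either, and Scgb2a1 only in 1 sham female pool. These dim genes had the lowest differences in females (-1.76 for Scgb2a1 and -1.38 for Scgb1d2), where dim signal reached lower on OVX arrays. Their values are almost all bounds, so that the median cannot show a change of the family. The part of the lower dim signal in these differences was not tested. The secretoglobins well above background on all arrays differed by -0.24 (Scgb1c1), -0.07 (Scgb1a1), 0.40 (Scgb3a1) and 1.27 (Scgb1b30) in females. Scgb1a1, the club cell secretory protein, averaged -0.24 in OVX and -0.17 in sham females, a difference of -0.07 (limma, adjusted p = 0.848). Scgb3a1 had every OVX pool above every sham female pool (difference 0.40, limma, adjusted p = 0.105). Scgb1c1 averaged 8.10 in OVX and 8.34 in sham females and 7.99 in OOX and 8.26 in sham males, and neither difference passed (limma, adjusted p = 0.559 and 0.666).

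Scgb1b30, whose promoter nearly equals that of Scgb1b24, was well above background on all arrays. It was at 1.85, 0.78 and 3.49 in OVX females, against 0.36, 0.50 and 1.46 in sham females. OVX replicate 3 was the highest pool and OVX replicate 2 the lowest of its group for both genes. The difference of 1.27 (SE 0.69) did not pass (limma, adjusted p = 0.344). In males Scgb1b30 was at 0.84, 0.23, 1.11 and 1.06 in OOX pools, against 0.39, 0.61, 0.40 and 0.66 in sham pools, and the groups overlapped (difference 0.29, SE 0.21, limma, adjusted p = 0.852). The 2 genes may share hybridizing RNA, since the similarity of their transcripts to each other's probe was not examined.

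Of the 14 other intracellular lipid binding proteins measured, 0 were called higher in females and 0 in either direction in males, with a median difference of -0.08 in females and 0.21 in males. Fabp9, a fatty acid-binding protein of the head of rat sperm that lies on chromosome 2 past Fabp4 from Fabp12, had the difference nearest to that of Fabp12. It was at -1.98, -2.43 and -1.82 in OVX females, against -4.51, -3.91 and -2.49 in sham females. These groups did not overlap, although sham female replicate 3 lay only just below the lowest OVX pool, and the difference of 1.56 (SE 0.51) did not pass (limma, adjusted p = 0.131). In males Fabp9 was at -2.49, -1.92, -2.20 and -1.90 in OOX pools, against -4.23, -3.52, -3.86 and -3.54 in sham pools. That difference of 1.66 (SE 0.21) was not called either (limma, adjusted p = 0.0503).

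Fabp4, the carrier of fat cells and the nearest measured gene on that side, averaged -2.86 in OVX and -3.79 in sham females without overlap, and -3.46 in OOX and -2.74 in sham males with overlap, and neither difference was called (limma, adjusted p = 0.301 and 0.720). Pmp2, the myelin protein of the same family, averaged -4.95 in OVX and -4.02 in sham females, and -4.93 in OOX and -5.62 in sham males without overlap (limma, adjusted p = 0.232 and 0.648, neither called). On the other side of Fabp12 Chmp4c, Slc10a5 and Impa1 had differences of -0.35, 0.18 and -0.10 in females and 0.04, 0.02 and 0.01 in males, none of them called. The nearest measured genes beside Scgb1b24 included Hpn, Gramd1a, Scgb1b30, Uba2 and Pdcd2l, and beside Lypd4 they were Lypd10, Cd177l2, Ceacam4, Dmrtc2, Rps19 and Arhgef1. Of the 18 neighbours of the 3 genes 0 were called in females and 0 in males in either direction, with a median difference of 0.07 in females and 0.06 in males. By unadjusted p below 0.05, 3027 of all genes passed in females and 1041 in males.

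Of the 31 other genes of the Ly6/uPAR family, 0 were called higher and 1 lower in females and 0 in males, with median differences of 0.02 and 0.04. Ly6d, the gene called lower, was not well above background in either female group (-6.93 in OVX and -6.16 in sham females). Lypd2 averaged 3.34 in OVX and 3.39 in sham females and Lypd3 4.01 in OVX and 4.04 in sham females, so that these clearly measured genes differed by -0.05 (SE 0.19) and -0.04 (SE 0.17). Lypd5 had a difference of 0.23 in females and 0.56 in males, Lypd8l2 of 0.39 and 0.20, and Lypd8l1 of 0.66 and -0.25, all without passing. Lypd1 differed by -0.22 in females and 0.26 in males. Lypd9 was not well above background in any group. Lypd10 lies on one side of Lypd4, with Ceacam4 and Cd177l2 the measured genes between them. It was well above background in 1 OVX and 2 OOX pools and in no sham pool. Its differences were 0.49 (SE 0.83) in females and 0.95 (SE 0.89) in males. The sperm proteins of the family, Spaca4 and Tex101, had differences of 0.12 and 0.31 in females and 0.39 and 0.35 in males and were not called.

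**Figure D3:**
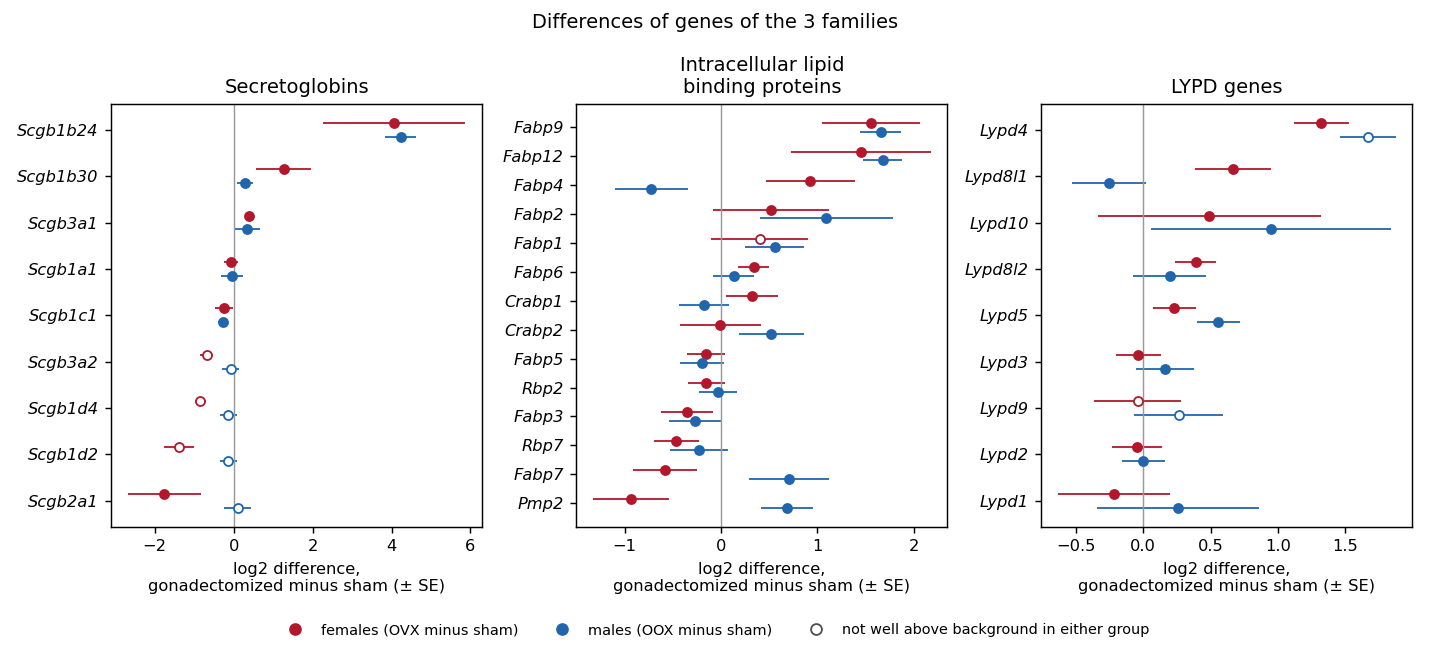
Difference between gonadectomized and sham pools (log2, x axis, ± SE) in females and males for measured genes (y axis) of the secretoglobins, the intracellular lipid binding proteins and the LYPD genes, open where no pool of either group was well above background. Scgb1b24 is at 4.07 in females and 4.23 in males, Fabp9 (1.56 and 1.66) lies beside Fabp12 (1.45 and 1.68), and Lypd4 is at 1.32 and 1.67.

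The genes most like each member were then taken, by Pearson's r over the 14 pools, from the genes that all arrays of 1 group or more measured well above background (12523 for Scgb1b24 and Fabp12, 12524 for Lypd4). The 8 male pools, whose contrast chose the 3 genes, enter these values, and a gene could pass the filter through the OVX or OOX arrays alone, so that the likeness is partly fixed by the choice of genes and the filter. For Scgb1b24 they included Spt1 (0.93), a rat salivary protein, Cadm4 (0.90), a cell adhesion molecule, Pip (0.89), the prolactin-induced protein of salivary and lacrimal glands, and Gtsf1 (0.88), a germ cell factor of the piRNA pathway in the mouse. In all, 40 genes had an r above 0.8. Spt1 was at -0.41, -2.53 and 1.43 in OVX females, against -5.08, -3.12 and -0.74 in sham females. It was at -3.49, -3.60, -2.35 and -3.24 in OOX males, against -6.77, -5.48, -5.05 and -3.03 in sham males. OVX replicate 3 was the highest pool and sham female replicate 3 the highest sham pool for Spt1, as for Scgb1b24.

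Pip was at -3.15, -4.66 and 0.17 in OVX females, against -6.07, -6.47 and -2.38 in sham females. It was not well above background in any male pool, at -6.85 to -4.43 in OOX and -6.93 to -6.07 in sham males. In the males Scgb1b24 was well above background in OOX pools where Pip was not. Pip was also below Scgb1b24 in OVX females (mean -2.55 against 0.66), so that the mark alone does not separate their patterns. Spt1 was well above background in all 4 OOX pools.

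For Fabp12 the genes most like it were Smcp (0.97), Hmgb4 (0.96), Cmtm2a (0.95), Tnp1 (0.94) and Fabp9 (0.94), with 39 genes above 0.8. Smcp encodes a protein of sperm mitochondria, Tnp1 a transition protein that packs the DNA of spermatids, and Hmgb4 a testis protein of the high mobility group. Smcp was at -0.41, -0.89 and -0.05 in OVX females, against -4.96, -5.13 and -0.51 in sham females. It was at -1.21, 0.01, -0.58 and -0.26 in OOX males, against -4.42, -4.66, -4.21 and -4.38 in sham males. Sham female replicate 3 again lay with the gonadectomized pools, and the other 6 sham pools far below them. Tnp1 showed the same division, with -0.44, -0.78 and -0.01 in OVX females and -4.62, -4.73 and -0.48 in sham females.

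For Lypd4 the genes most like it were Tnp2 (0.92), the second transition protein, Hspb9 (0.92), a testis heat shock protein, Nt5c1b (0.92), a nucleotidase, Crisp2 (0.91), a secretory protein of the acrosome, and Gtsf1 (0.91), with 59 genes above 0.8. Tnp2 was at -1.72, -1.60 and -1.17 in OVX females, against -5.78, -6.13 and -1.75 in sham females. Crisp2 was at -2.09, -2.28 and -1.36 in OVX females, against -6.06, -6.52 and -1.98 in sham females. Sham female replicate 3 was thus high for Tnp2 and Crisp2, while Lypd4 was at -5.95 there, only 0.19 above the lowest signal of the array. In OOX males Crisp2 was at -2.68, -1.26, -1.63 and -1.19, against -6.91, -5.99, -6.96 and -6.12 in sham males.

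**Figure D4:**
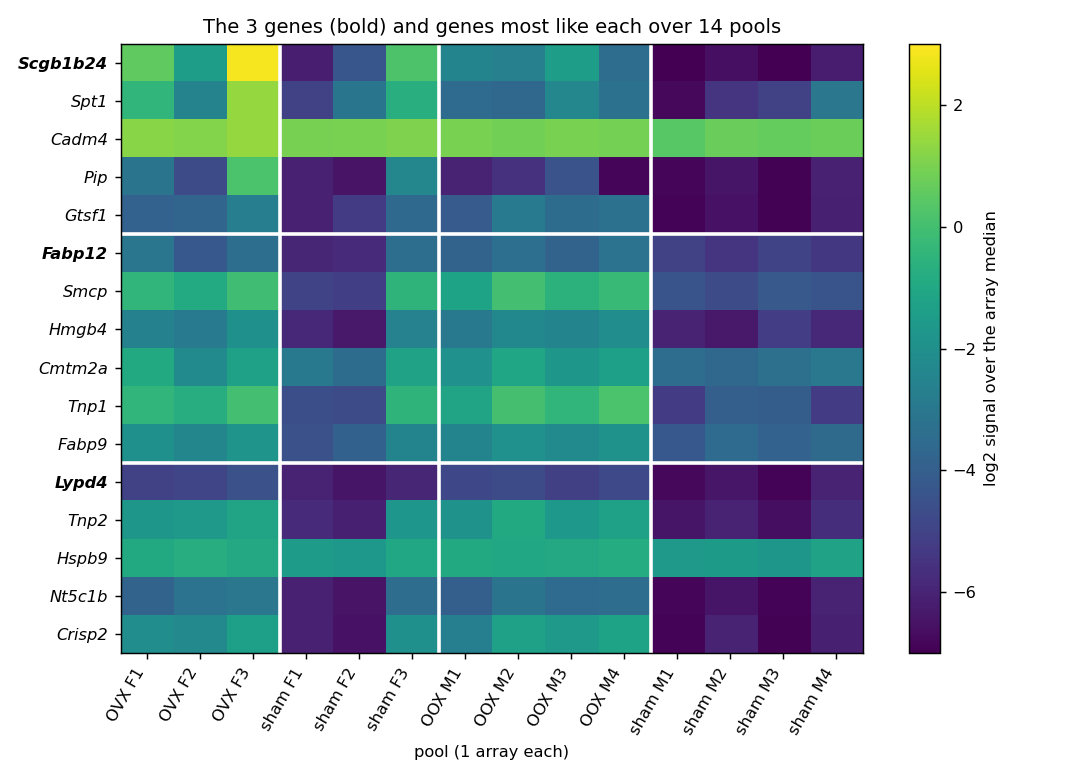
Colour gives log2 signal over the array median of Scgb1b24, Fabp12 and Lypd4 (bold) and of genes most like each (rows, to be compared along a row only) in the 14 pools (columns), with Gtsf1 shown once. Sham female replicate 3 resembles the OVX and OOX pools in the rows of Smcp (-0.51), Tnp1 (-0.48) and Crisp2 (-1.98), but not in that of Lypd4 (-5.95).

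Markers of other cell types were examined in the same pools. All 30 listed spermatid markers were measured, and their summed signal, as a multiple of the array median, was 6.94, 7.48 and 9.60 in OVX females, against 3.94, 3.67 and 7.60 in sham females. It was 6.94, 8.93, 8.14 and 9.23 in OOX males, against 3.31, 4.26, 3.90 and 4.78 in sham males. Between 21 and 22 of the markers were well above background in OVX pools and 11 to 17 in sham female pools, and between 19 and 23 in OOX pools and 11 to 17 in sham male pools. Sham female replicate 3 was again the sham pool with the highest sum. In females 2 were called higher (Actl7b, which was dim in sham females, and Catsper3, which was dim in both groups) and 0 lower. The median difference was 0.52, or 0.02 within the shared slide. Without sham female replicate 3, left out because its levels of these markers stood apart, 6 were called higher (Tnp1, Tnp2, Smcp, Crisp2, Hmgb4 and Oaz3), which is no independent support. Without sham female replicate 2, 2 were called higher and 2 lower, and without any other 1 female pool 0 were called. In males 5 were called higher (Tnp2, Smcp, Crisp2, Hmgb4 and Tnp1) and 0 lower, with a median of 0.38, or 0.86 within the slide that held both male groups. On no array were 5 of the 30 well above background, among them Akap4, a main protein of the sperm tail, at -6.99 in OVX and -6.27 in sham females. Acr, the protease of the acrosome, differed by 0.09 in females, and Spaca3, another acrosomal protein, by -1.12, neither of them called. The part of spermatid transcripts in the values of the 3 genes was not tested.

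In the other marker lists at most 1 gene was called in a direction. Of the 12 CP epithelium markers 0 were called in either sex. Their median difference was -0.20 in females (0.04 within the shared slide) and -0.31 in males (-0.26 within the slide with both male groups), against -0.07 and 0.02 for all genes. Their summed signal was 2114 to 3357 in OVX and 2837 to 3370 in sham females, and OVX replicate 3 was the lowest pool. Of 9 salivary and lacrimal gland markers measured of 15 listed, 0 were called in either sex, and their summed signal was 0.38, 0.45 and 1.76 in OVX females, against 0.28, 0.27 and 0.57 in sham females. It was 0.36 to 0.43 in OOX males and 0.28 to 0.37 in sham males, and OVX replicate 3 was the highest pool, as for Scgb1b24. Pip alone was above the array median in that pool (log2 value 0.17) and made up most of its sum. Since Pip was also among the genes most like Scgb1b24, the peak is not a result of the whole list. Smr3a differed by 0.13 (-3.44 in OVX and -3.57 in sham females), Prpmp5 by 1.26 and Obp3 by 1.16 in females, none of them called, and 3 of the 9, Ltf, Smr3b and Bpifa2, were dim on all arrays. Of 6 measured germ cell markers of earlier stages, 0 were called higher and 1 lower in females, Sycp3, which was dim in both groups (-6.97 in OVX and -6.21 in sham females), and 0 in males. Of 11 Sertoli and Leydig cell markers 1 was called higher in females, Inha (0.54 in OVX and -0.15 in sham females), and 0 in males. Of 11 photoreceptor markers Pde6a was called higher (-3.82 in OVX and -6.08 in sham females) and Nrl lower (-3.90 in OVX and -1.81 in sham females), and 0 in males. Of 9 sex steroid and related receptors and enzymes 0 were called in either sex. The estrogen receptor Esr1 was not well above background in any group, and Srd5a2, which makes dihydrotestosterone, differed by 0.57 in females (limma, adjusted p = 0.0596). The part of gland transcripts in Scgb1b24 was not tested.

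**Figure D5:**
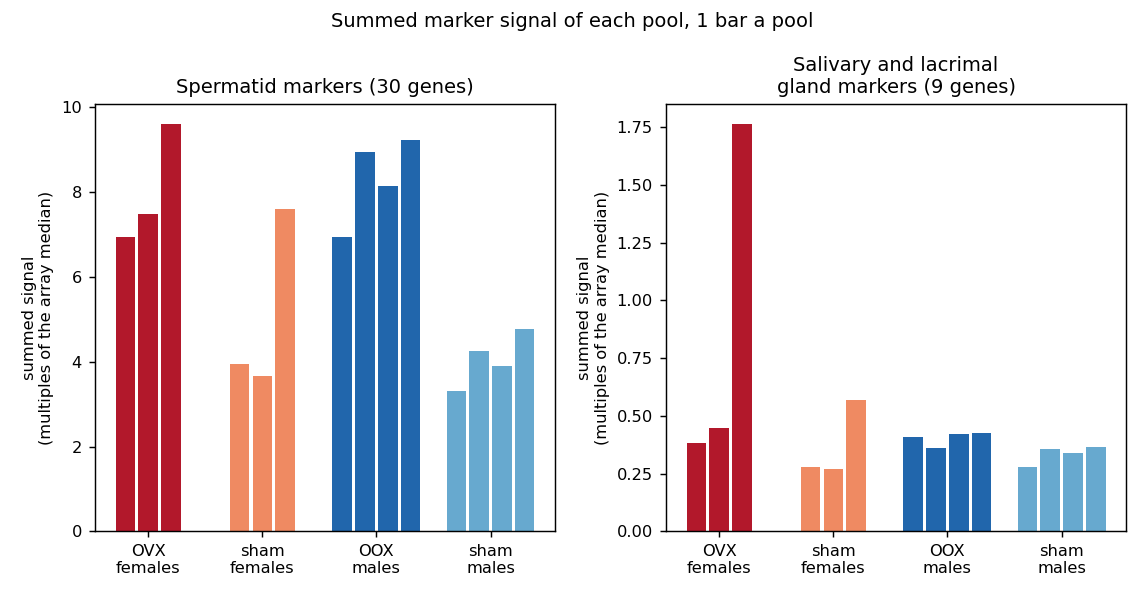
Summed signal (multiples of the array median, y axis) of the 30 spermatid markers and the 9 salivary and lacrimal gland markers in each pool (1 bar a pool, x axis by group). OVX and OOX pools lie between 6.94 and 9.60 for spermatid markers and sham pools between 3.31 and 4.78 except sham female replicate 3 (7.60). For gland markers OVX replicate 3 (1.76) is the highest, mostly through Pip.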

How the data were processed

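RNA from CP of 14 pools, each of 3 animals, was measured on single-colour (Cy3) Agilent arrays of rat genes. The deposited scanner files hold fluorescence intensity per spot, which the authors' scanner software, Feature Extraction 10.5.1.1, had corrected for background without scaling between arrays. The deposited table of values holds log2 values from BRB-ArrayTools, centred on the median by the authors; its columns differed from log2 of the processed intensity by 1 constant per array (-0.44 to 0.30), have medians of 7.59 to 7.88, and were an alternative.

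The processed signal of each spot was used, without control spots and spots marked as outliers (222 to 877 of 42877 per array); saturated spots (425 to 851) were kept, and 79.7% to 87.2% of spots were well above background. Spots of a probe were averaged on the log2 scale, and the median of rat probes was subtracted. Of 30367 probes, 18004 were named through accessions in RefSeq (15154 genes) and 12363 were not; the probe with the highest mean stood for a gene. Groups were compared within each sex with limma 3.58.1 in R 4.3.3 (lmFit, eBayes), two-sided, with Benjamini-Hochberg adjustment over all named genes and unnamed probes, and called at an adjusted p under 0.05. The fits were tested on simulated data. Promoters were searched and aligned with Biopython 1.88, and values handled in Python 3.11.15 (numpy 2.4.6, pandas 2.3.3) and with data.table (version 1.17.8) in R. The number of arrays limits the precision.

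The 3 genes and all gene lists were chosen with earlier results of these data known. Besides these, the text names the 5 genes most like each, the nearest 3 measured genes on each side, the genes of the same subfamilies, and from each list those called (at most 6, by p), or the 3 of smallest p, and the brightest 2; other genes of the marker lists that are named were chosen after their values were seen. Some genes that this rule names are not reported here. Alternatives were quantile scaling, scaling to the 75th percentile, normexp with offset 50 (on median spot signals, where mean signals had been planned), dim probes filtered out, outlier spots retained, the mean over probes, all groups in 1 fit, blocks on replicate number, slide (5 slides) and scan day (2 days), array weights, the methods' t-test, the deposited value table and each pool left out. Values raised to the detection level and marker counts without single pools were added after seeing the data.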

Additional observations from a re-analysis of the deposited data

How the results depend on the processing

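In females the differences of Scgb1b24 and Fabp12 stayed above 0 and did not pass under any of their 20 alternatives, and leaving out 1 pool gave 2.71 to 5.89 and 1.01 to 2.28. For Lypd4 leaving out 1 pool gave 1.17 to 1.42 (adjusted p 0.0333 to 0.121). The Lypd4 difference in females no longer passed with normexp (0.088, adjusted p = 0.935), with a block on slide (0.93, adjusted p = 0.534), with a block on scan day (1.12, adjusted p = 0.278), and with the methods' t-test, whose difference was the same 1.32 (adjusted p = 0.0968 after Benjamini-Hochberg). With values below the detection mark raised to the lowest signal well above background on their array, chosen after seeing the data, it turned to -0.67 (adjusted p = 0.0295), since that level is lower on OVX arrays. Lypd4 left the test under the filter on dim probes. In males raising values to that level gave 1.92 for Scgb1b24, 0.86 for Fabp12 and -0.066 for Lypd4. All male Lypd4 values were replaced, so that -0.066 is a difference of array levels only. With normexp the differences were 0.62, 0.081 and -0.044, and a block on slide gave 3.39 for Scgb1b24 and 2.08 for Fabp12. The offset of normexp shrinks differences between dim signals. How far this offset, or the slide, accounts for these values was not tested. Leaving out 1 male pool gave 3.87 to 4.54, 1.56 to 1.77 and 1.54 to 1.83. A block on scan day could not be fitted in males, whose arrays were all scanned on 1 day.

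The replicate numbers were not used to pair the pools. Deviations of pools with the same number correlated by 0.28, -0.02 and 0.19 in females and -0.09, -0.54, 0.10 and 0.26 in males (19639 genes and unnamed probes). Those of pools with different numbers correlated by -0.30 to 0.09 in females, below 0.28 and 0.19, and by -0.52 to 0.55 in males. With the replicate block the Lypd4 difference in females was 1.32 (adjusted p = 0.0732), 0 genes were called in females (3163 at an unadjusted p under 0.05) and 8 in males.

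The count of genes called in females, 947, was 231 with all groups in 1 fit, 188 with dim probes filtered, 112 with normexp, 64 with quantiles, 14 with scan day, 0 with slide (904 at an unadjusted p under 0.05), 3 with the methods' t-test, 412 higher and 2317 lower with values raised to the detection level, and 2 to 951 without 1 pool. In males the count of 13 was 27 with array weights, 8 with values raised, 0 with all groups in 1 fit, normexp or the methods' t-test (1194, 2602 and 1127 at an unadjusted p under 0.05), and 6 to 12 without 1 pool. No level below the detection mark can be ordered.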
